A study of Rattus norvegicus with 8 samples.

Results

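The genes described here are 7 transcription factors that set up and maintain the hepatocyte, the main cell of the liver: Foxa1, Foxa2, Foxa3, Prox1, Onecut1, Gata4 and Gata6. They were picked by symbol, with no threshold on a value, and all 7 were found among the 15115 genes of the authors' deposited table, 1 row each. The livers came from male F344 rats, genetically wild type, with a labelled age of 1 year. They arrived at 4 weeks of age, had 1 week of acclimation and were killed after a study of 60 weeks. A study of that length exceeds 1 year, so the labelled age is not exact. In the CDAA_PTS group (4 rats) the animals ate a choline-deficient, amino acid-defined diet (CDAA) with pterostilbene, a plant stilbenoid, at 1.34 g per kg, and had also received the compound in a choline-sufficient diet (CSAA) over the first 3 weeks. In the CDAA group (4 rats) the animals ate the choline-deficient diet alone after 3 weeks on CSAA, a regimen used to bring about liver cancer. The study kept 6 rats per group, housed 2 per cage, and collected tumour, nodule or tumour-free tissue; the kind behind each library was not given in the sources used here. GEO's series text uses the short name CDAA+PTS for a resveratrol group too, and the sample labels, which name pterostilbene, were followed.

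FOXA proteins are forkhead factors known as pioneers, because they bind sites in closed chromatin and make hepatocyte enhancers accessible to other factors. GATA factors work beside them when the liver forms in the embryo, ONECUT and PROX1 join as hepatoblasts become hepatocytes or bile duct cells, and HNF4A holds the adult programme together. Outside hepatocytes, bile duct cells make FOXA and ONECUT1, sinusoidal endothelial and stellate cells make GATA4, several stromal cell types make GATA6, and lymphatic endothelium makes PROX1. In whole liver, fewer cells of a type and less RNA per cell cannot be told apart.

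Each value is 1 number per group or per comparison in the authors' deposited table; the libraries' own values and depths are unknown here. Over all libraries, the mean normalized counts sum to 1.39e+07 in the authors' deposited table. FPKM (fragments scaled by transcript length and library size) is the scale that allows genes to be compared with each other. A gene counts as called when the authors' deposited table gives it an adjusted p under 0.05 in edgeR. Hepatocyte RNA dominated the tissue: Ttr, the transthyretin transport protein, measured 7034 FPKM in CDAA_PTS and 7436 in CDAA, and Alb (albumin) averaged 107899 CPM over all libraries, in the authors' deposited table. Cuffdiff lists Alb at 0 FPKM in both groups of the authors' deposited table, so its level rests on the count-based columns.

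None of the 7 factors was called. In the authors' deposited table, 0 of 7 passed in edgeR, where 3.41% of all genes were called, 0 of 7 in DESeq2 (4.46% of the genes with an adjusted p) and 0 of 7 in Cuffdiff (5.51% of the genes it tested). Adjusted p-values of the members ran from 0.26 for Foxa2 to 0.97 for Gata4 in edgeR (the authors' deposited table). Summed over the 7 genes, the level was 78.7 FPKM in CDAA_PTS and 79.0 FPKM in CDAA. The edgeR log2 fold change was above 0 for 4 members and below 0 for 3, and edgeR, DESeq2 and Cuffdiff gave the same sign for all 7. At an unadjusted p under 0.05, 2 of 7 passed in edgeR (14.6% of all genes), 2 of 7 in DESeq2 (14.3%) and 3 of 7 in Cuffdiff (14.9%). With an adjusted p under 0.1 in edgeR 0 of 7 passed (5.27% of all genes), and 0 of 7 when the edgeR p was adjusted over genes of at least 1 CPM (4.11%).

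**Figure D1:**
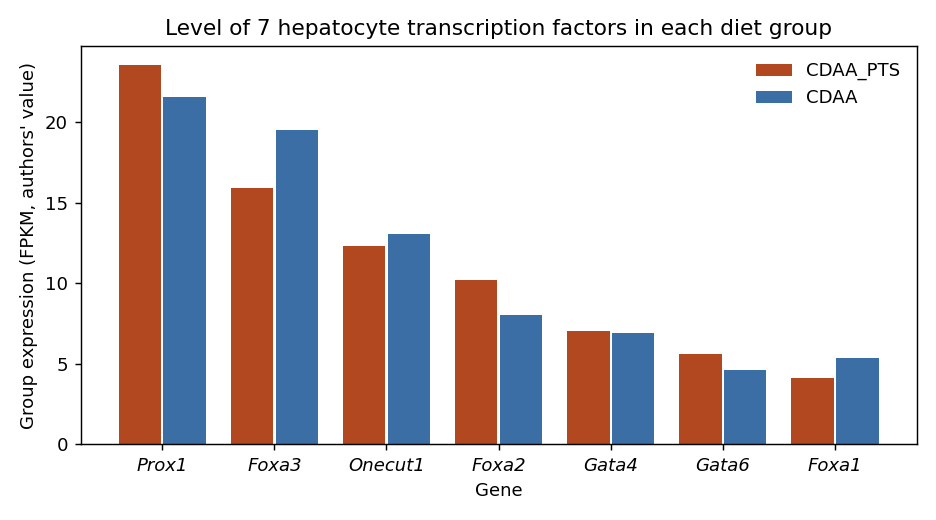
Group expression in FPKM (vertical axis, from 0; the authors' value, 1 per group, so no error bars) of the 7 factors (horizontal axis, by level in CDAA_PTS), with CDAA_PTS left of CDAA. Prox1 is highest in both groups at 23.6 FPKM in CDAA_PTS and 21.6 in CDAA, and Foxa1 is the lowest in CDAA_PTS at 4.09 FPKM.

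The levels spanned about the same range in both groups. In CDAA_PTS the order was Prox1, Foxa3, Onecut1, Foxa2, Gata4, Gata6 and Foxa1, and in CDAA it was the same except that Foxa1 stood above Gata6. With 1 value per group there is no spread against which neighbours in this order can be told apart. Set among all genes, Prox1 had a higher FPKM than 81.1% of them in CDAA_PTS and 79.3% in CDAA, and Foxa1 than 39.1% in CDAA_PTS and 45.2% in CDAA. HNF4A, the nuclear receptor at the centre of the network, was far more abundant as mRNA: Hnf4a measured 115 FPKM in CDAA_PTS and 119 in CDAA in the authors' deposited table. Prox1 reached 0.205 of the Hnf4a FPKM in CDAA_PTS and 0.181 in CDAA.

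The 3 FOXA paralogs did not all have values on the same side of 0. Foxa2 (ENSRNOG00000013133, chromosome 3, 142383277 to 142387481 in rn6) takes part in liver specification in the embryo and, in adult mouse liver, in bile acid and fasting responses. It measured 10.2 FPKM in CDAA_PTS and 8.03 in CDAA in the authors' deposited table. In edgeR the log2 fold change was 0.35 (p 0.028 unadjusted and 0.26 adjusted, the authors' deposited table). DESeq2 put it at 0.30 (SE 0.14, the authors' deposited table), which gives a 95% interval of 0.02 to 0.59, before any adjustment for the number of genes.

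Foxa1 (ENSRNOG00000009284, chromosome 6, 78545803 to 78549669 in rn6), which overlaps with Foxa2 in function during liver development, had a value below 0. It measured 4.09 FPKM in CDAA_PTS and 5.36 in CDAA in the authors' deposited table. In edgeR the log2 fold change was -0.44 (p 0.037 unadjusted and 0.30 adjusted, the authors' deposited table). DESeq2 put it at -0.35 (SE 0.17, the authors' deposited table), with a 95% interval of -0.69 to -0.02. This was the largest difference among the 7 members. With a mean normalized count of 113 over all libraries in the authors' deposited table, Foxa1 also had the fewest reads of the 7.

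Foxa3 (ENSRNOG00000014256, chromosome 1, 79920751 to 79930263 in rn6), the FOXA gene with the highest mRNA level here, measured 15.9 FPKM in CDAA_PTS and 19.5 in CDAA in the authors' deposited table. The edgeR log2 fold change, -0.30, did not pass (adjusted p 0.63, the authors' deposited table). DESeq2 put it at -0.22 (SE 0.18, the authors' deposited table), with a 95% interval of -0.58 to 0.14. The tools differed on the unadjusted p, which was 0.041 in Cuffdiff and 0.21 in edgeR in the authors' deposited table; the Cuffdiff adjusted value was 0.31.

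Taken as a family, FOXA mRNA summed to 30.2 FPKM in CDAA_PTS and 32.9 FPKM in CDAA. Foxa2 made up 33.8% of that sum in CDAA_PTS and 24.4% in CDAA. Foxa3 made up 52.7% in CDAA_PTS and 59.3% in CDAA, and Foxa1 made up 13.5% in CDAA_PTS and 16.3% in CDAA. The Foxa2 to Foxa1 ratio was therefore 2.50 in CDAA_PTS and 1.50 in CDAA, and the Foxa3 to Foxa2 ratio 1.56 in CDAA_PTS and 2.43 in CDAA. These ratios come from 1 value per gene and group, and the difference between the groups was not tested. Cholangiocyte markers were set beside these values, since bile duct cells also make FOXA proteins and ONECUT1. Of these markers, 10 of 10 had an edgeR log2 fold change above 0 (median 0.23). Foxa2 (0.35) was on the same side, while Foxa1 (-0.44), Foxa3 (-0.30) and Onecut1 (-0.08) were below 0. Among the 10 markers edgeR called 0 (3.41% of all genes), while Cuffdiff called 1, Sox9, higher (5.51% of the genes it tested). Their summed level was 116 FPKM in CDAA_PTS and 98.3 FPKM in CDAA. None of the 10 markers was listed at 0, and their part in the FOXA and Onecut1 values was not tested.

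The upstream letters of Foxa2 and Gata6, the members with the largest values above 0, are shown to set the genes' regulatory sequence beside their levels. RefSeq promoter windows matched 3 of the 7 members (Foxa2, Foxa3 and Gata6), on build GRCr8, which is not the build of the authors' deposited table. Printed are the 250 bases before the annotated start, 5′ to 3′ on the strand of the gene: chr3:155927509-155927758, minus strand, for Foxa2 and chr18:2460659-2460908, plus strand, for Gata6. Capitals mark matches to the motifs searched.
Foxa2: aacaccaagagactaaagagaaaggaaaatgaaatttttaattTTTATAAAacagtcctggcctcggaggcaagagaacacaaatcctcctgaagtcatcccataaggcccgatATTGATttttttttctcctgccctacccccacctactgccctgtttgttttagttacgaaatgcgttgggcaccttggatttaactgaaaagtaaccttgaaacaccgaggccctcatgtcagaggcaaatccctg
Gata6: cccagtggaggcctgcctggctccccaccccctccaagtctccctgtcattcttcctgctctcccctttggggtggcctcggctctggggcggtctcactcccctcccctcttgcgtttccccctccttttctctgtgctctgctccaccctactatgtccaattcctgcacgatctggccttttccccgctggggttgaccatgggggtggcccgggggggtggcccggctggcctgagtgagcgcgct
The motifs searched, on both strands, were TGTTTAC (forkhead), AGATAA (zinc finger factors of the GATA family), ATTGAT (the cut domain of ONECUT factors) and TATAAA (the core of a TATA box), the last one chosen after the windows were seen. The Foxa2 window held ATTGAT once, 136 to 131 bases before the start, and TATAAA on each strand in overlapping letters, 207 to 200 bases before it. The Gata6 window held none of the 4. Over 33469 RefSeq windows of this length, 7.10% held ATTGAT, 12.9% TATAAA, 10.3% AGATAA and 3.21% TGTTTAC. The window was 42.8% G and C for Foxa2 and 66.0% for Gata6, against a median of 51.2% over all windows. The Foxa3 window, at 69.6% G and C, precedes an annotated start that is not the outermost RefSeq start of its gene, and is not printed. It held TATAAA 82 to 77 bases before that start. A match describes letters and shows no binding.

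Prox1 (ENSRNOG00000003694, chromosome 13, 108382398 to 108443294 in rn6), a prospero homeobox factor described elsewhere as a partner of HNF4A and NR5A2 that represses Cyp7a1, was the most abundant member. It measured 23.6 FPKM in CDAA_PTS and 21.6 in CDAA in the authors' deposited table. The edgeR log2 fold change, 0.12, did not pass (adjusted p 0.75, the authors' deposited table). Its DESeq2 interval was the narrowest of the 7, at -0.10 to 0.32 around a value of 0.11 (SE 0.11, the authors' deposited table), so a fold change outside 0.936 to 1.25 lies beyond that interval. Lymphatic endothelial markers, from the other liver cell type known for Prox1, summed to 122 FPKM in CDAA_PTS and 97.0 FPKM in CDAA. Most of that sum in each group was Ccl21. Lyve1 is also in the sinusoidal endothelial list and Reln in the stellate cell list, so neither is particular to lymphatic cells. Of these 7 markers 5 were above 0 in edgeR log2 fold change (median 0.10), and edgeR and DESeq2 called 0. Cuffdiff called 2 of the 6 it tested (5.51% of all the genes it tested), both higher and both named after their values were seen. Mmrn1 (multimerin) had 5.60 FPKM in CDAA_PTS and 2.27 in CDAA (Cuffdiff adjusted p 0.0019 and edgeR adjusted p 0.082, the authors' deposited table). Ccl21, a chemokine of lymphatic vessels, had 78.6 FPKM in CDAA_PTS and 55.6 in CDAA (Cuffdiff adjusted p 0.019 and edgeR adjusted p 0.52, the authors' deposited table). None of the 7 was listed at 0, and their part in the Prox1 value was not tested.

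Onecut1 (ENSRNOG00000008095, chromosome 8, 81766040 to 81793577 in rn6), a cut homeobox factor of hepatocytes and bile ducts, measured 12.3 FPKM in CDAA_PTS and 13.0 in CDAA in the authors' deposited table. Log2 fold changes were -0.08 in edgeR (adjusted p 0.95) and -0.06 in DESeq2 (SE 0.18), by the authors' deposited table. The 95% interval, -0.41 to 0.29, was wide for a gene with a mean normalized count of 447. Its paralog Onecut2 was nearly as abundant, at 9.83 FPKM in CDAA_PTS and 12.2 in CDAA in the authors' deposited table, with an edgeR log2 fold change of -0.27 (adjusted p 0.57). Together the ONECUT genes summed to 22.1 FPKM in CDAA_PTS and 25.2 FPKM in CDAA.

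Gata4 (ENSRNOG00000010708, chromosome 15, 46386711 to 46432965 in rn6), a zinc finger factor that acts in hepatoblasts and in sinusoidal endothelium, had the smallest difference of the 7. It measured 7.03 FPKM in CDAA_PTS and 6.88 in CDAA in the authors' deposited table. The edgeR log2 fold change was 0.03 (adjusted p 0.97, the authors' deposited table). The DESeq2 interval ran from -0.19 to 0.24 (SE 0.11, the authors' deposited table). Of the sinusoidal endothelial markers, 11 measured of 12, edgeR called 0, where it called 3.41% of all genes. At an unadjusted edgeR p under 0.05 there were 2 (14.6% of all genes). The edgeR log2 fold change was above 0 for 6 of these markers and below 0 for 5. Their summed level was 153 FPKM in CDAA_PTS and 147 FPKM in CDAA.

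Gata6 (ENSRNOG00000023433, chromosome 18, 2416551 to 2446338 in rn6), the paralog needed for early liver bud growth in mouse, measured 5.63 FPKM in CDAA_PTS and 4.61 in CDAA in the authors' deposited table. The edgeR log2 fold change, 0.28, did not pass (adjusted p 0.62, the authors' deposited table). DESeq2 put it at 0.22 (SE 0.17, the authors' deposited table), with a 95% interval of -0.12 to 0.56. The Gata4 to Gata6 ratio was 1.25 in CDAA_PTS and 1.49 in CDAA, a difference that was not tested. Of the other GATA genes, Gata2 and Gata3 were measured and stayed under 1 FPKM in both groups.

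**Figure D2:**
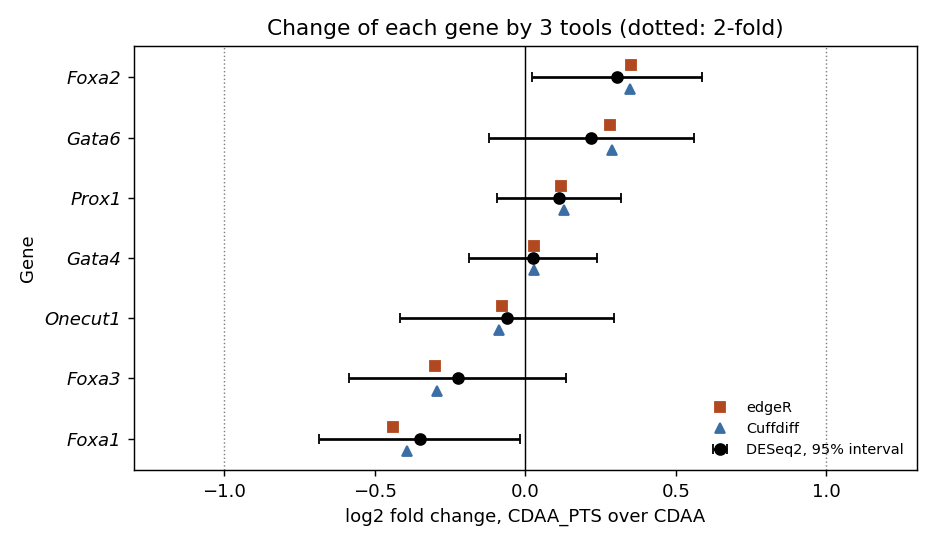
The log2 fold change of CDAA_PTS over CDAA (horizontal axis) for each factor (vertical axis) by edgeR (squares), DESeq2 (circles, bars showing the 95% interval from the authors' SE) and Cuffdiff (triangles); dotted lines mark 2-fold. The intervals of Foxa2 and Foxa1 leave out 0 on opposite sides before adjustment over all genes, the other 5 span 0, and none reaches 2-fold.

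The intervals bound how far each factor could have moved. All 7 DESeq2 intervals lay within 2-fold in either direction, from a lowest bound of -0.69 for Foxa1 to a highest of 0.59 for Foxa2, and 5 of 7 spanned 0. DESeq2 values in the authors' deposited table are moderated toward 0, so these bounds are narrower than unmoderated ones could be. All 7 members were among the 9295 genes with a mean normalized count of at least 100, of which edgeR called 4.16%. The called genes in that range had a median absolute log2 fold change of 0.61 and a smallest one of 0.32, and 71 of the 387 called genes there changed by no more than the size of the Foxa1 value.

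The members differed in how precisely they were measured. SEs of Foxa3, Onecut1, Gata6 and Foxa1 exceeded those of 93.0%, 92.2%, 89.9% and 88.6% of the genes with a mean normalized count of at least 100, whose median SE was 0.12. For Prox1 and Gata4 the shares were 27.4% and 30.9%. Foxa3 had 4.62 times the reads of Foxa1 and yet as large an SE, 0.18 against 0.17 in the authors' deposited table. Absolute edgeR log2 fold changes had a median of 0.28 over the 7, and of 0.17 over all genes. Their signed median was 0.03, against 0.01 over all genes.

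**Figure D3:**
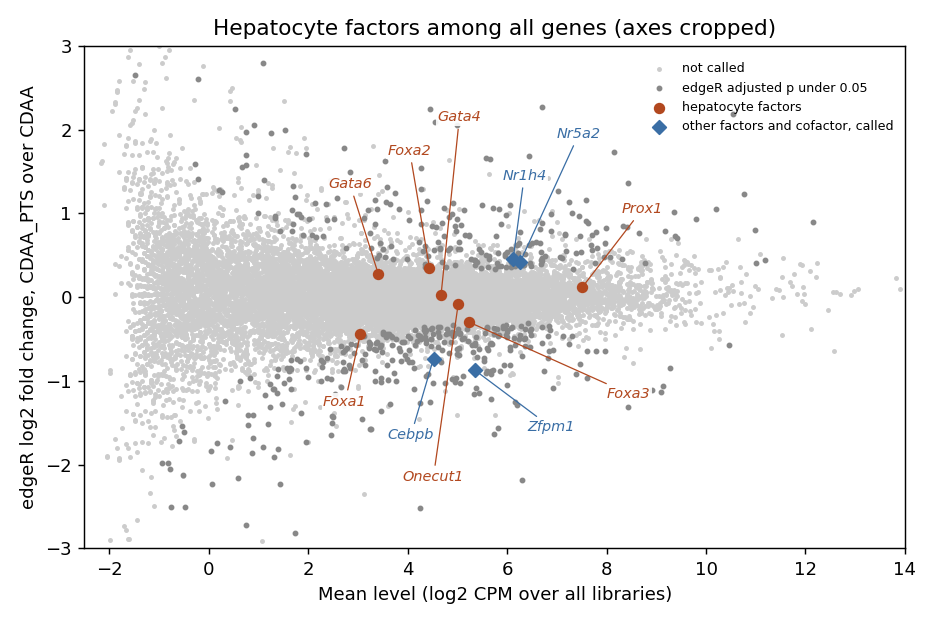
Genes by mean level over all libraries (horizontal axis, log2 CPM; both axes cropped) and edgeR log2 fold change of CDAA_PTS over CDAA (vertical axis), with called genes in dark grey, the 7 factors as circles and 4 called relatives as diamonds. The 7 circles lie in the cloud of uncalled genes, between -0.44 and 0.35, while Zfpm1 and Cebpb lie below it and Nr5a2 and Nr1h4 at its upper edge.

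Around these factors, a list of 25 other hepatocyte transcription factors was measured in full. Of these, 2 rose, 1 fell and 22 did not pass in edgeR, which called 3.41% of all genes, and the median edgeR log2 fold change was -0.06. Nr5a2, the nuclear receptor that drives bile acid synthesis genes and binds PROX1, rose to 16.2 FPKM in CDAA_PTS, against 12.1 FPKM in CDAA (edgeR log2 fold change 0.42, adjusted p 0.012, the authors' deposited table). Nr1h4, the bile acid receptor, rose to 36.0 FPKM in CDAA_PTS, against 26.6 FPKM in CDAA (adjusted p 0.015 in edgeR, the authors' deposited table). Cebpb, a factor of the acute phase and regeneration responses, fell to 12.0 FPKM in CDAA_PTS, against 20.0 FPKM in CDAA (edgeR log2 fold change -0.73, adjusted p 0.00047, the authors' deposited table).

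Hnf4a and Cebpa, core partners of the 7 members, were among those that did not pass. For Hnf4a the edgeR log2 fold change was -0.07 (adjusted p 0.90) and for Cebpa -0.36 (adjusted p 0.49) in the authors' deposited table. Cebpa measured 48.6 FPKM in CDAA_PTS and 61.9 in CDAA, in the authors' deposited table. Tbx3, a T-box factor of hepatoblasts named after its values were seen, had an adjusted p of 0.061 in edgeR and 0.047 in DESeq2 in the authors' deposited table, with 2.78 FPKM in CDAA_PTS and 1.26 FPKM in CDAA. Cuffdiff also called it.

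Among 17 measured cofactors of the members, 1 fell and 16 did not pass in edgeR (3.41% of all genes called), with no gene that rose. The one that fell was Zfpm1 (chromosome 19, 55094584 to 55150686 in rn6), which encodes FOG1, a zinc finger protein that binds GATA factors and modulates them, best known from blood cell development. Zfpm1 measured 8.39 FPKM in CDAA_PTS and 15.5 in CDAA in the authors' deposited table. All 3 tools of the authors' deposited table called it, with a log2 fold change of -0.87 in edgeR (adjusted p 1.3e-06) and -0.78 in DESeq2 (SE 0.13). No other row of the authors' deposited table overlaps Zfpm1. Its relative Zfpm2, which encodes FOG2 and partners GATA4 in heart and stromal cells, was scarce at 1.51 FPKM in CDAA_PTS and 1.11 in CDAA (edgeR log2 fold change 0.42, adjusted p 0.49, the authors' deposited table).

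Blood cells are a known source of Zfpm1 mRNA, so erythroid and platelet markers, a list added after its value was seen, were set beside it. Of its 13 symbols 10 were measured, in 11 rows, since Hba-a2 has a pair of rows. All 11 had an edgeR log2 fold change above 0, from 0.01 to 1.23 in the authors' deposited table, and by FPKM 8 were higher in CDAA_PTS and 3 lower. Of these rows, 0 were called by edgeR, DESeq2 or Cuffdiff, with 1 at an unadjusted edgeR p under 0.05. Their summed level was 613 FPKM in CDAA_PTS and 505 FPKM in CDAA, of which the 3 globin rows made up 597 FPKM in CDAA_PTS and 491 FPKM in CDAA. No row of this list was listed at 0, and its part in the Zfpm1 value was not tested.

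**Figure D4:**
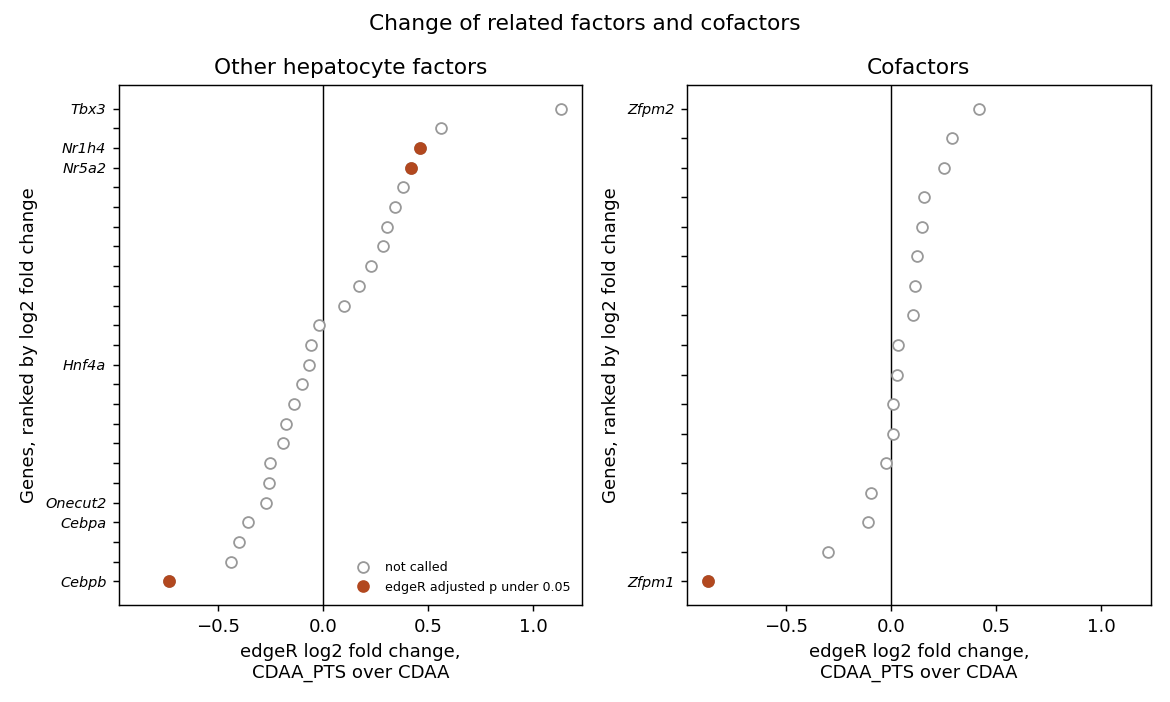
The edgeR log2 fold change of CDAA_PTS over CDAA (horizontal axis) for the 25 other hepatocyte factors (left) and the 17 measured cofactors (right), ranked by that value (vertical axis), with filled points for genes of adjusted p under 0.05 and names for the genes described in the text. Zfpm1 and Cebpb lie at the low end, at -0.87 and -0.73, and Nr5a2 and Nr1h4 are the filled points above 0.

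The wider protein families held no called gene. Since edgeR called 3.41% of all genes, lists this short can hold none at that share. Whether they differed from other genes was not tested. Without adjustment, 14.6% of all genes passed 0.05 in edgeR. Of 38 forkhead genes outside FOXA, 17 were measured and 0 were called by edgeR (3 had an unadjusted p under 0.05), DESeq2 or Cuffdiff, with a median edgeR log2 fold change of -0.05. Relatives of the GATA, cut and prospero genes filled 12 rows, of which 0 were called by any of the 3 tools and 1 had an unadjusted edgeR p under 0.05, with a median of -0.10.

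Hepatocyte genes with textbook control by FOXA, ONECUT, GATA or PROX1 numbered 23. Of these, 1 rose, none fell and 22 did not pass in edgeR, which called 3.41% of all genes. At an unadjusted p under 0.05 there were 7 (14.6% of all genes), and the median log2 fold change was 0.04. The one that rose was G6pc, the glucose-6-phosphatase catalytic subunit, at 359 FPKM in CDAA_PTS and 108 in CDAA in the authors' deposited table. Cuffdiff called 5 of the 22 it tested, 4 higher and 1 lower, beside 5.51% of all the genes it tested. Besides G6pc these were Slc10a1, Cyp2c11 and Pfkfb1 above 0 and Cyp7a1 below 0. Cyp7a1, the first enzyme of bile acid synthesis, measured 22.8 FPKM in CDAA_PTS and 44.5 in CDAA, with an adjusted p of 0.22 in edgeR, the authors' deposited table. The last 4 were named after their values were seen.

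Hepatoblast and progenitor genes were measured for 12 of 16. None was called by edgeR or DESeq2, with 0 at an unadjusted edgeR p under 0.05, and the median edgeR log2 fold change was 0.14. Cuffdiff called 1, Sox9, at 4.41 FPKM in CDAA_PTS and 3.04 in CDAA in the authors' deposited table. Several genes of this list, Sox9 included, are also in the cholangiocyte list, so this is the same call as there. Hepatocyte markers were all measured; Ass1, a urea cycle enzyme, rose to 757 FPKM in CDAA_PTS, against 389 FPKM in CDAA (edgeR adjusted p 0.00076, the authors' deposited table), 13 of 14 did not pass, and the median was 0.06. Cuffdiff called Apoa2, an apolipoprotein, as well. Stellate cell and myofibroblast markers (14 measured of 15, summed level 331 FPKM in CDAA_PTS and 323 FPKM in CDAA, median edgeR log2 fold change 0.02) and macrophage markers (10 of 10, 318 FPKM in CDAA_PTS and 330.0 FPKM in CDAA, median -0.08) held 0 called genes in edgeR, with 3 and 2 at an unadjusted p under 0.05. DESeq2 called 0 in both lists, giving no adjusted p for 3 stellate cell and myofibroblast markers, Lum among them, and Cuffdiff 0 of the macrophage markers. Over all genes, 14.6% had an unadjusted edgeR p under 0.05, edgeR called 3.41%, and Cuffdiff called 5.51% of those it tested. Of the stellate cell and myofibroblast markers Cuffdiff called 2, both higher and both named after their values were seen. Lum (lumican) had 2.20 FPKM in CDAA_PTS and 0.433 in CDAA. Its edgeR log2 fold change was 2.34 with an adjusted p of 0.053 (the authors' deposited table). It passed when the edgeR p was adjusted over genes of at least 1 CPM. DESeq2 gave Lum no p, adjusted or not, and a log2 fold change of 0.59, at a mean normalized count of 37.4. Without values per library, whether single rats drive the Lum difference is unknown. Dcn (decorin) had 32.4 FPKM in CDAA_PTS and 21.7 in CDAA, with an edgeR adjusted p of 0.23 (the authors' deposited table).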

How the data were processed

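Liver RNA of 8 rats, 4 per group, was extracted with Trizol and sequenced from Illumina TruSeq libraries, per the labels' protocols. Build rn6 and the tools TopHat2, Cufflinks, edgeR, DESeq2 and FastQC appear in the submitters' processing notes; counter, strand handling and filters were not given in the sources used here. A single deposited table holds the authors' results, with 0 columns of per-sample values set aside. Per the file headers, the authors' DESeq2 columns give a signal (mean normalized count), a log2 fold change with its SE, a score and a p-value; the authors' edgeR columns give a log2 fold change, log2 mean CPM and p-value; the deposited Cuffdiff columns give 1 FPKM per group, a log2 ratio, a score and a p-value. All changes are CDAA_PTS over CDAA.

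No count model was run. For calls, the adjusted p from edgeR as the authors deposited it, over all genes, was used with a threshold of 0.05, and it matched a Benjamini-Hochberg adjustment of the deposited p-values. DESeq2 gives no adjusted p for 1956 genes, which were kept as missing, and Cuffdiff did not test 1888. Intervals are 95% normal intervals from the authors' DESeq2 value and SE. The p-values set the group difference against the variation between libraries of different rats, as the authors' models estimated it. Cage and kind of tissue are not given per library and cannot be separated from that variation. Named genes are the 7 members, called genes of the fixed lists and a preset few. Some single genes of the lists are not reported here. Members and lists were chosen with earlier results of these data known. Alternatives were other tools, a threshold of 0.1, a minimum of 1 CPM and FPKM pseudocounts of 0.1 and 1. Computation used Python 3.11.15, pandas 2.3.3, numpy 2.4.6 and matplotlib 3.10.9; the adjustment was tested on simulated p-values.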

Additional observations from a re-analysis of the deposited data

How the results depend on the processing

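All 14 values of the members from DESeq2 and Cuffdiff had the direction of edgeR, and no member was called by either, at a threshold of 0.1 or after adjustment over genes of at least 1 CPM. Threshold and adjustment leave the edgeR values as they are and bear on calls only. Pseudocounts, which cannot turn a sign and carry no test, moved the members' FPKM log2 ratios by at most 0.07. With a threshold of 0.1, called genes numbered 797 over the whole table, 6 among the other hepatocyte factors, 1 among the forkhead genes and 3 among the markers of 6 cell types. DESeq2 called 2 cofactors, Zfpm1 among them. Cuffdiff called 5 genes with textbook control, 1 progenitor gene and 7 markers, with Sox9 counted both as progenitor gene and as marker. Adjustment over genes of at least 1 CPM gave 2 markers. The counts with the edgeR threshold of 0.05 were 516 over the whole table, 3 other factors, 0 forkhead genes, 1 cofactor, 1 gene with textbook control, 0 progenitor genes and 1 marker. The cause of these differences was not tested. Leaving out single rats was not possible, since the table has no value per library. No paired analysis was possible because the table holds 1 row per gene for the whole comparison and no column per rat. Depth per library is unknown.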

Other observations

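The genes next to the 7 factors were looked up after the values above were seen. No row of the authors' deposited table overlaps a member, and none shares a Cuffdiff locus identifier with one. Of the 14 nearest neighbours, 1 on each side of each member, edgeR called 2 in the authors' deposited table. Irf2bp1, which encodes an interferon regulatory factor binding protein and lies 6.53 kb from Foxa3, fell to 5.12 FPKM in CDAA_PTS, against 7.06 FPKM in CDAA (edgeR log2 fold change -0.49, adjusted p 0.017, the authors' deposited table). Sympk, only 0.892 kb from the other end of Foxa3, measured 9.88 FPKM in CDAA_PTS and 9.55 in CDAA (adjusted p 0.95 in edgeR, the authors' deposited table). Fam214a, 70.0 kb from Onecut1, rose to 24.6 FPKM in CDAA_PTS, against 18.1 FPKM in CDAA (edgeR log2 fold change 0.44, adjusted p 0.024, the authors' deposited table). Over all genes, edgeR called 3.41%.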
